A study of Drosophila melanogaster with 33 samples.

Results

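The cytosolic ribosomal protein genes of Drosophila melanogaster were described in eye-antennal imaginal discs, the larval tissue that forms the eye, the antenna and the head capsule. Genes were taken by their symbols, those that start with RpL or RpS and sta, which encodes a small subunit protein. The gene sop is listed under its name RpS2. The count tables list 16727 genes, of which 93 carried such a symbol, and 87 of the 93 reached 10 counts in at least 3 of the 33 libraries and are called members below. Of the 87 members, 49 were large subunit proteins, 36 were small subunit proteins and 2 were relatives of a subunit protein, RpL24-like and RpLP0-like. The 6 symbols left out were RpL10Aa, RpL37b, RpL7-like, RpS10a, RpS28-like and RpS28a. Members lay on every major chromosome arm, with 17 on 2L, 20 on 2R, 14 on 3L, 20 on 3R, 14 on X and 1 on chromosome 4, while RpL37a could not be placed because its symbol differs from RpL37A by letter case alone.

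Ribosomal proteins and ribosomal RNA form the small subunit, which decodes the mRNA, and the large subunit, which joins amino acids. Their genes are transcribed at high and coordinated rates in growing tissue, and in flies the loss of a single copy of many of them slows development and gives short bristles, the Minute phenotype. The study altered Hippo signalling, the kinase pathway that restrains tissue growth by keeping the coactivator Yorkie (yki) out of the nucleus. Its kinase Warts (wts) phosphorylates Yorkie, and Scalloped (sd) is the DNA-binding partner of Yorkie. Myc, encoded by dm, is a growth regulator known in flies to act on ribosome production.

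All larvae were kept at 25°C, and at least 30 discs per sample were taken on day 5 after egg laying. In 26 libraries of sequencing run 1 and 7 of run 2, 3' ends of polyadenylated RNA were counted, so a transcript gives about 1 tag whatever its length. The eyFLP controls (n = 3) carried y w ey-FLP with FRT82B cl- over FRT82B, and eyFLP wts- discs (n = 2) carried FRT82B wts149 in place of the plain FRT82B arm. In optix yki3SA discs (n = 2) the optix-Gal4 driver was combined with UAS-yki3SA, an activated Yorkie, and optix controls (n = 3) carried UAS-lucRNAi instead. MARCM discs hold marked clones, made by FLP recombinase, in which Gal4 is active. In run 1 the MARCM controls (n = 5) carried FRT19A over tub-Gal80 FRT19A with ey-FLP, Act 5C<y+<Gal4 and UAS-GFP, and yki3SA discs (n = 5) added UAS-yki3SA. The sd- discs carried sd47M on FRT19A (n = 3 in run 1 and 2 in run 2), and yki3SA sd- discs had both alterations (n = 3 in run 1 and 2 in run 2). In run 2 the controls (n = 2) and the yki3SA library (n = 1) had another genotype, with y w ey-FLP, FRT42D over FRT42D tub-Gal80, and tub-Gal4 UAS-GFP, while the sd- and yki3SA sd- genotypes were those of run 1. In each MARCM and eyFLP disc, clones lie among other cells, so the values are averages over altered and unaltered tissue. Nothing in the labels says that replicates came from separate crosses, and p-values then measure the spread between these samples, which may be technical.

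Total counts ran from 4874192 to 15273835 in run 1 and from 17071389 to 19128356 in run 2. The 13 eye-antennal disc markers, such as so, eya, dac and Dll, were all detected, and their summed level was 5086.51 to 5775.19 CPM (counts scaled to the total counts of the library) in optix controls. Germline markers summed to at most 12.4 CPM in any library. The wts count was higher in the eyFLP wts- libraries (224 and 199 CPM) than in their controls (151, 149 and 156 CPM), and whether wts149 removes the counted 3' end was not stated. For yki, the run 1 yki3SA libraries held 41.8, 37.97, 40.9, 41.4 and 70.5 CPM against 22.98, 17.3, 24.0, 47.5 and 51.7 CPM in MARCM controls, ranges that overlapped, and whether the transgene carries the counted 3' end was not stated. The run 1 libraries labelled yki3SA sd- held 4.22, 2.46 and 9.10 CPM, below all run 1 MARCM controls, so their yki count goes against the label. Libraries labelled as without the transgene were also near 0, optix control replicate 2 at 0 CPM and sd- replicate 3 at 1.22 CPM. A low count therefore cannot settle the label. Those labelled optix yki3SA held 9.68 and 45.6 CPM against 6.35, 0 and 17.6 CPM in optix controls, with replicate 1 below a control. Groups are named below as labelled. In run 2 yki stood at 2728 CPM in the yki3SA library, at 156 and 180 CPM in yki3SA sd- and at 99.6 to 105 CPM in the others. The sd count in run 1 was 287, 246 and 343 CPM in sd- discs and 337 to 417 CPM in controls, ranges that overlapped.

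Members took a larger share of the counts in run 1 libraries than in run 2 libraries, the yki3SA sd- library at 18.1% and the run 2 yki3SA library at 18.6% aside. Their share of all counts was 26.2% ± 1.16 (SD, n = 3) in eyFLP controls, 28.7% ± 0.620 (SD, n = 2) in eyFLP wts-, 24.9% ± 0.716 (SD, n = 3) in optix controls and 27.2% ± 0.699 (SD, n = 2) in optix yki3SA. Both altered models thus lay above their own controls without overlap. In run 1 the share was 26.7% ± 0.664 (SD, n = 5) in MARCM controls, 27.2% ± 0.741 (SD, n = 5) in yki3SA, 25.9% ± 0.658 (SD, n = 3) in sd- and 22.1% ± 3.50 (SD, n = 3) in yki3SA sd-. The last spread came from 1 library, yki3SA sd- replicate 2, at 18.1%, beside 24.4% and 23.8% in the other replicates. In run 2 the share was 14.5% and 13.97% in controls, 13.2% and 14.4% in sd-, and 12.8% and 13.0% in yki3SA sd-. The single run 2 yki3SA library was highest in that run at 18.6%. These are whole discs, so fewer cells of a type and less RNA per cell cannot be told apart.

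**Figure D1:**
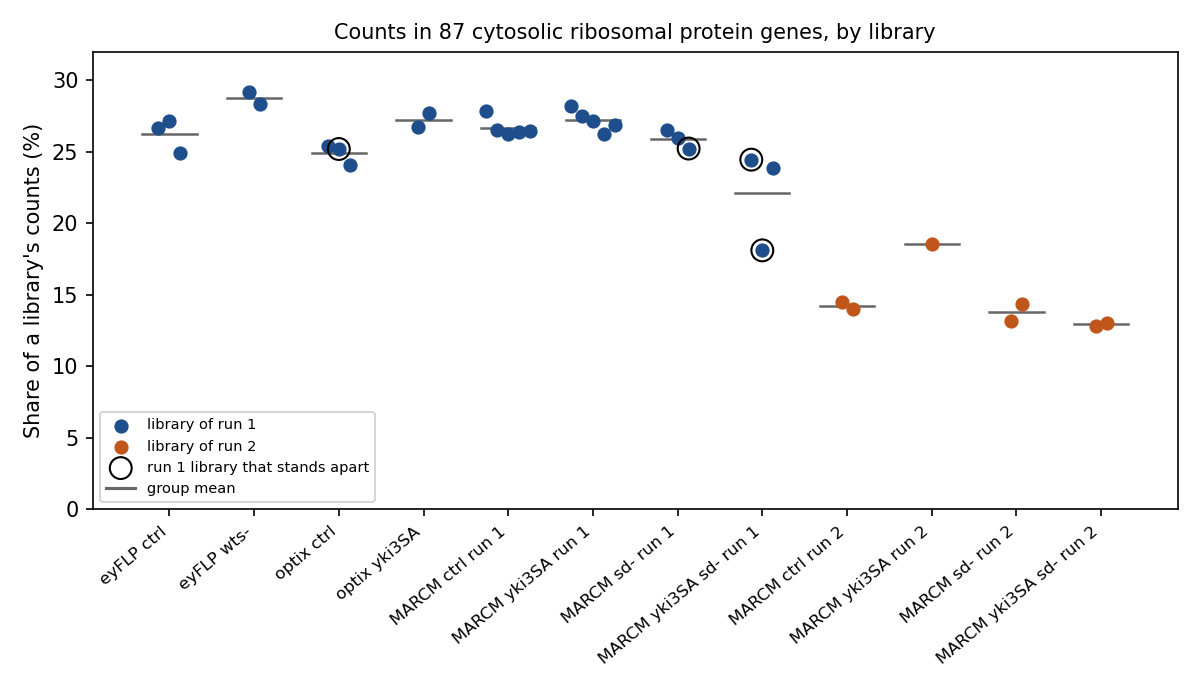
Share of each library's counts (%, y axis) that fell in the 87 ribosomal protein genes, for the 12 combinations of group and run. Points are libraries, lines are group means and circles mark 4 run 1 libraries that stand apart. Run 1 libraries other than yki3SA sd- replicate 2 lie between 23.8% and 29.2%, and run 2 libraries between 12.8% and 18.6%.

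Most members were abundant, 77 of 87 above a mean of 1000 CPM in run 1 and 71 in run 2, and 6 and 5 members were below 100 CPM. The highest mean belonged to RpL41, which encodes a very short basic peptide of the large subunit (FBgn0066084, chromosome 2R, 24903416 to 24903935, minus strand). RpL41 had 13348, 11927, 11396, 14926 and 14764 CPM in run 1 MARCM controls and 2922 and 2795 CPM in run 2 controls. RpL3, whose protein reaches the peptidyl transferase centre (FBgn0020910, chromosome 3R, 11221894 to 11225173, plus strand), followed with 6300, 6227, 6341, 5061 and 5338 CPM in run 1 controls and 3631 and 3472 CPM in run 2. Thus RpL41 led in run 1, with a mean of 11860 CPM, and RpL3 led in run 2, with 3711 CPM. RpL15, RpLP2 and sta completed the 5 highest means over all libraries. RpL15 had a mean of 6487 CPM in run 1 and 1805 CPM in run 2, RpLP2 had 5643 and 2014 CPM, and sta had 5195 and 3667 CPM. Since a transcript gives about 1 tag, these levels were not corrected for length. Whether genes differ in how many tags a transcript yields was not tested, and the order of members changed between the runs. The stalk proteins RpLP0, RpLP1 and RpLP2 recruit elongation factors to the large subunit. Their run 1 control levels were alike in size, at 3048 to 3672 CPM for RpLP0, 3319 to 4090 CPM for RpLP1 and 5053 to 6002 CPM for RpLP2. Both genes that encode ubiquitin fused to a ribosomal protein were also abundant, RpL40 at 3150 to 3854 CPM and RpS27A at 2709 to 3123 CPM in the same libraries. RpS6, the phosphorylation target of S6 kinase, stood at 2983 to 3326 CPM there. At the bottom of the order RpS15Ab, RpLP0-like, RpS5b, RpS19b and RpL22-like had the 5 lowest means, at 88.9, 34.3, 4.599, 1.81 and 1.03 CPM over all libraries.

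Several members come as pairs of similar genes, and in most pairs a single gene gave nearly all counts. RpS5b, known mainly from the ovary (FBgn0038277, chromosome 3R, 14900432 to 14901563, minus strand), gave a median of 0.203% of the RpS5a and RpS5b counts in run 1 and 0.170% in run 2. RpS19b, known from the germline, gave 0.0391% and 0.239% of its pair. RpL10Aa had 0 counts in all libraries, RpL37b 4 counts, RpS28a 8, RpS28-like 7, RpL7-like 1 and RpS10a 56, so these copies were at or near the detection limit in this tissue. Minor copies with a clear share were RpS14b, RpL34a, RpS15Ab and RpL24-like. RpS14b lies directly after RpS14a on chromosome X (7934898 to 7935792 and 7933742 to 7934677, both plus strand) and gave 7.45% to 17.3% of the pair in run 1 and 27.6% to 30.6% in run 2, ranges that did not overlap. The proteins of this pair are nearly identical, and how tags shared by such copies were assigned was not stated, so the split of a pair is uncertain. RpL34a gave a median of 19.5% of its pair in run 1 and 20.1% in run 2, without such a shift. RpS15Ab gave 4.09% and 6.92%, and its run 1 range, up to 6.502%, overlapped the run 2 range, from 5.29%. RpL24-like, a protein known from ribosome assembly, gave 5.26% of the counts of RpL24 and RpL24-like in run 1 and 9.77% in run 2. RpLP0-like, the fly relative of a ribosome assembly factor known in yeast, gave 0.641% and 2.97% beside RpLP0. RpL22 went further, with 15.3, 13.4, 19.0, 31.8 and 27.0 CPM in run 1 MARCM controls and 853 and 838 CPM in run 2 controls. RpL22 (FBgn0015288, chromosome X, 762560 to 765130, minus strand) encodes an RNA-binding protein of the large subunit. Its testis relative RpL22-like was at 0 to 2.69 CPM in all libraries, so in run 1 neither gene of this pair reached the level of the other large subunit members.

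**Figure D2:**
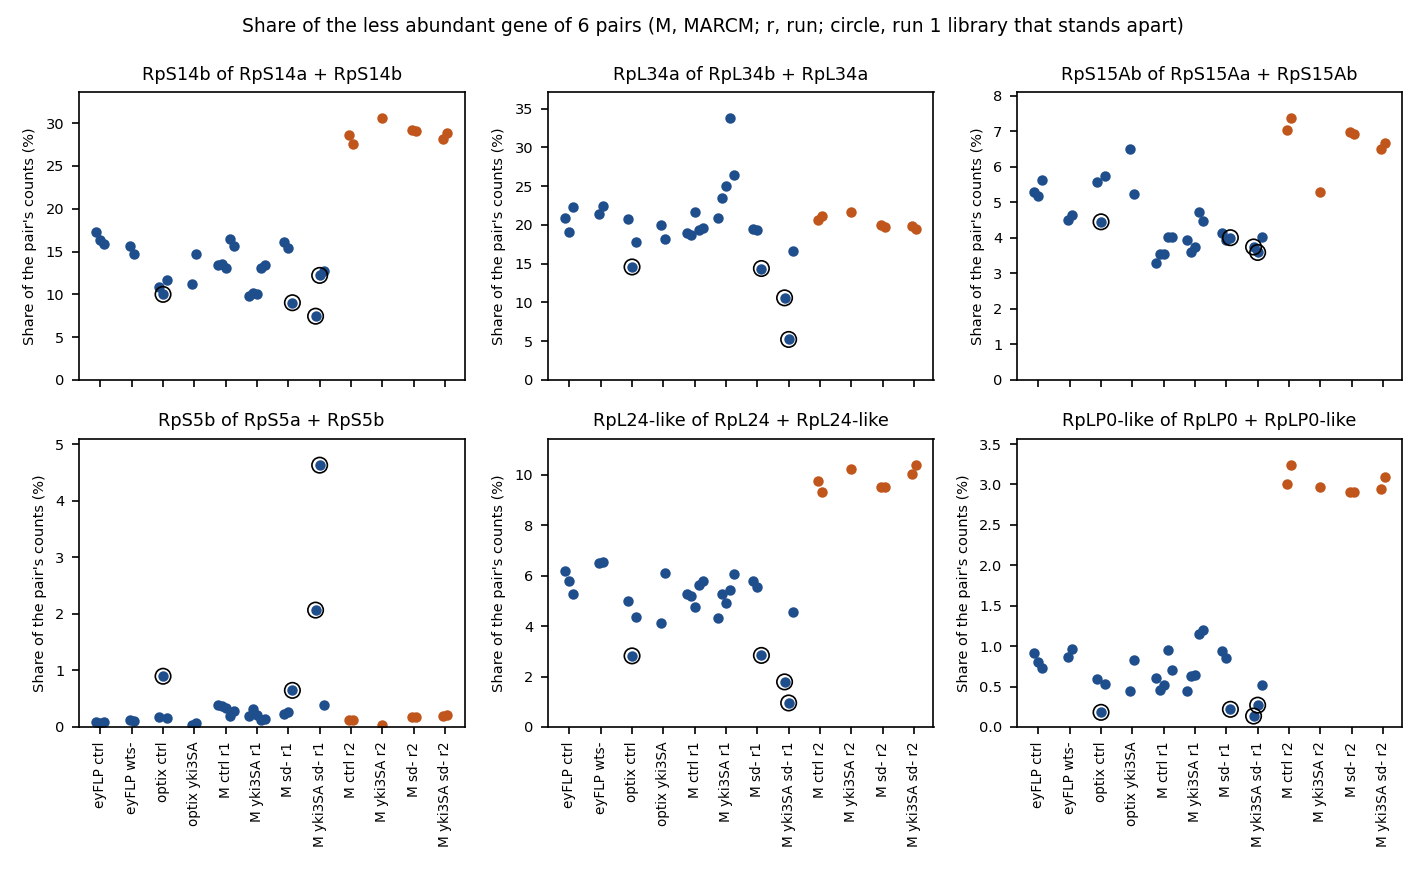
Share (%, y axis) that the less abundant gene holds of the counts of 6 gene pairs, in each library of the 12 combinations of group and run (blue, run 1; orange, run 2; circles, 4 run 1 libraries that stand apart). RpS14b, RpL24-like and RpLP0-like hold larger shares in run 2 than in any run 1 library, while RpL34a does not.

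Before the comparisons, 4 run 1 libraries have to be named: optix ctrl replicate 2, sd- replicate 3 and yki3SA sd- replicates 1 and 2. They were picked by a median absolute log2 difference of members from the run 1 medians over a cutoff of 0.2. It was 0.266, 0.285, 0.558 and 1.505, against 0.0597 to 0.155 in the other 22 run 1 libraries, so the cutoff itself parts these ranges. The 4 libraries were also the farthest over other genes, at 0.306 to 0.821 against at most 0.259. They had 6787 to 7540 genes with 10 or more counts, where the other run 1 libraries had 7151 to 8231. Their total counts were 4874192 to 9946422, against 5838706 to 15273835 in the others. Their yki count was 0 to 4.22 CPM, where the others had at least 6.35 CPM. Set against the other libraries of its group, each had some members low and others high, and the pattern was shared. RpS5a stood at 558 CPM in optix ctrl replicate 2, beside 1622 and 2073 CPM in the other optix controls. In sd- it stood at 603 CPM in replicate 3, beside 3074 and 3051 CPM, and in yki3SA sd- at 281 and 76.1 CPM in replicates 1 and 2, beside 1484 CPM in replicate 3. RpL4, which lines the peptide exit tunnel, behaved alike, at 589 CPM beside 1393 and 1423 CPM, at 610 CPM beside 2362 and 2235 CPM, and at 248 and 85.8 CPM beside 1419 CPM. In contrast RpL3 was high in the same libraries, at 8088 CPM beside 6132 and 5462 CPM, at 7601 CPM beside 5153 and 5289 CPM, and at 12482 and 18066 CPM beside 5631 CPM. Pearson's r of the member differences was 0.93 between optix ctrl replicate 2 and sd- replicate 3 (n = 87 members), which come from different groups and share no reference library. Over the 6 pairs of these libraries r was 0.56 to 0.93, and both yki3SA sd- libraries share replicate 3 as reference. In yki3SA sd- replicate 2, 51 members were lower by at least 1 on the log2 scale, and the median member difference was -1.22 where that of other genes was 0.05. Spearman's rho of the differences with annotated 3' UTR length was -0.02 to 0.05 and with transcript length 0.07 to 0.12 (n = 86). What set these 4 libraries apart was not tested, and comparisons of members that use them are given below with and without them.

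**Figure D3:**
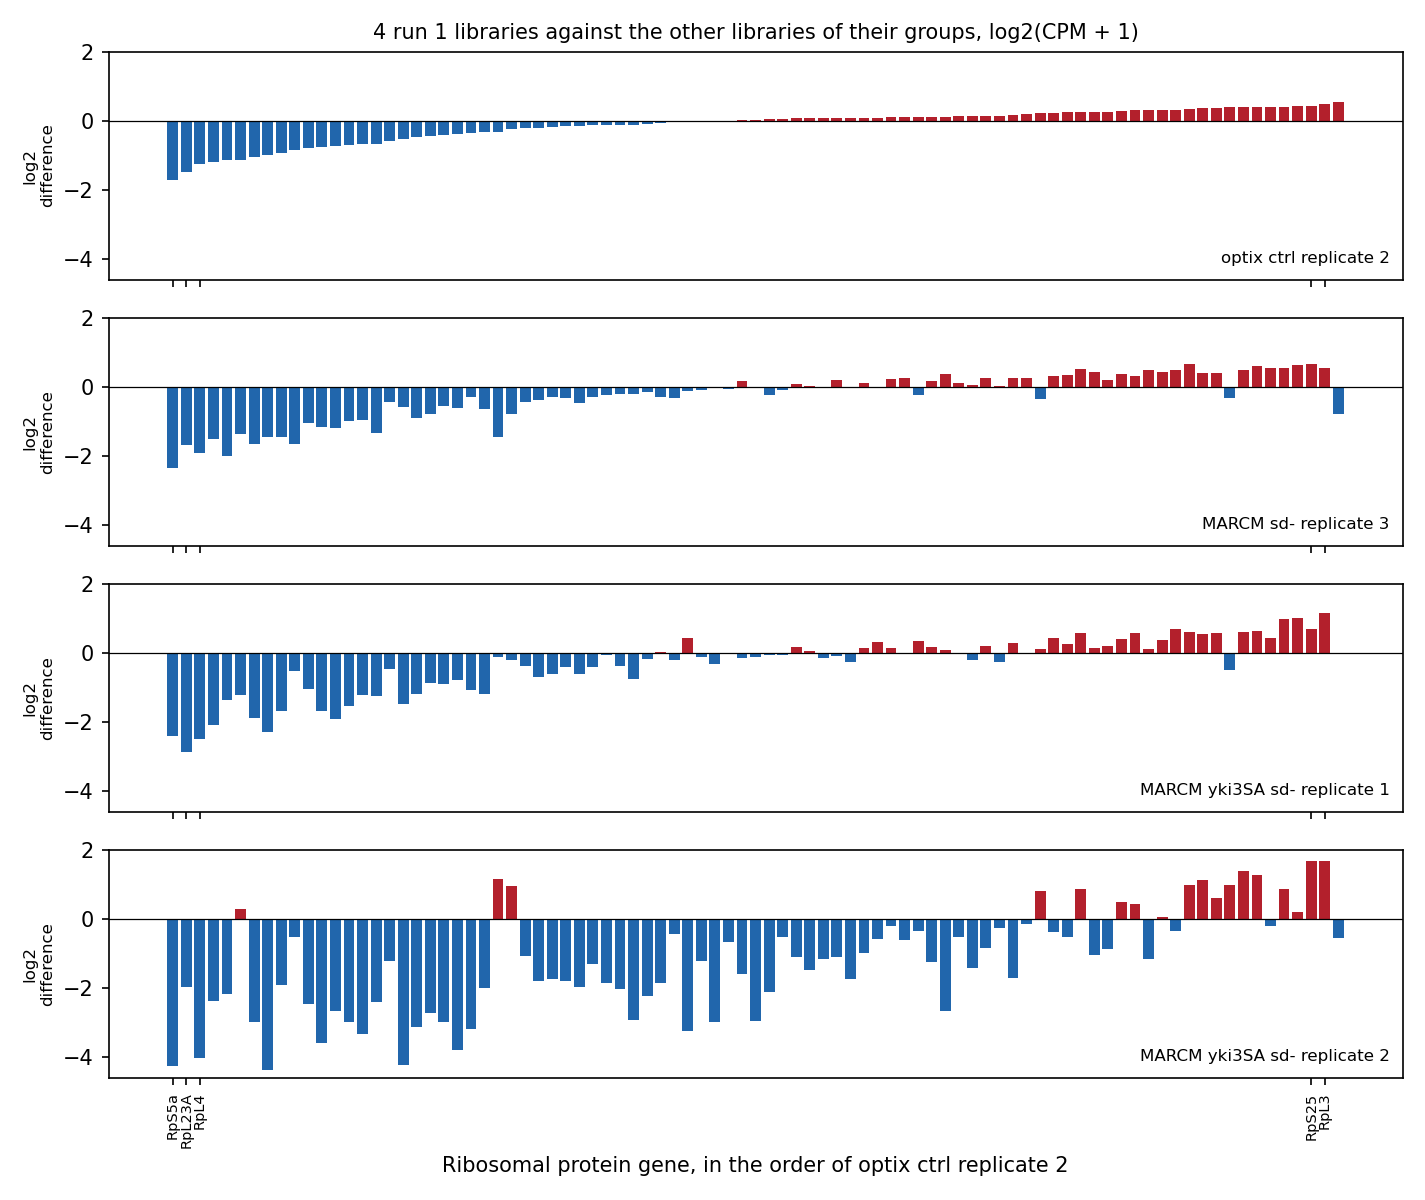
Difference of log2(CPM + 1) (y axis) between each of the 4 libraries and the other libraries of its group, for the 87 members in the order of optix ctrl replicate 2 (x axis, 5 members labelled); for yki3SA sd- the reference is replicate 3. RpS5a, RpL23A and RpL4, at the left, are low in all 4 panels, and RpS25 and RpL3, near the right end, are high in all 4.

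In wts- discs most members were slightly higher than in controls, and 5 passed the test. The median log2 change of the 87 members was 0.19, with 85 above 0, where the median of the 8693 genes tested was -0.01 (edgeR quasi-likelihood test, Benjamini-Hochberg adjusted p under 0.05). Of the members 5 rose, which is 5.75%, and 0 fell, where 10.6% of all genes tested rose and 13.5% fell. RpL6, a large subunit protein (FBgn0039857, chromosome 3R, 31594792 to 31596204, minus strand), had 4163 and 3853 CPM in wts- and 2982, 3062 and 2676 CPM in controls. It rose by a log2 change of 0.54 ± 0.10 (SE, edgeR adjusted p = 0.00024), the largest among the 5. The stalk protein gene RpLP2 had 6581 and 6048 CPM against 5560, 5208 and 4771 CPM, and rose by 0.36 ± 0.12 (SE, edgeR adjusted p = 0.032). RpS20 had 3176 and 2881 CPM against 2527, 2542 and 2447 CPM (log2 change 0.35). RpL36A had 4685 and 4214 CPM against 3865, 3978 and 3475 CPM (log2 change 0.31), and RpL29 had 2944 and 2583 CPM against 2499, 2531 and 2092 CPM (log2 change 0.29). In each of these 5 genes both wts- libraries lay above all 3 controls. This lack of overlap held for 53 of 87 members in the higher direction and 2 in the lower, and for 22.4% and 34.3% of all genes tested. RpS19b had the largest difference downwards, at 0.927 and 0.883 CPM against 2.74, 3.24 and 2.24 CPM, but did not pass (log2 change -1.51, edgeR adjusted p = 0.063). The calls moved with the libraries used. Without eyFLP wts- replicate 1 only RpL6 was called, without any single control 3 members were, and with the 5 eyFLP libraries fitted alone 31 were, 30 of them higher. That is 35.6% of members called, nearly all higher, beside 16.7% of all genes higher and 18.7% lower in the same fit. Summed eye-antennal markers were 3631 to 3936 CPM in wts- and 4971 to 5874 CPM in controls, with 12 of 13 called lower. Summed tracheal markers were 1382 to 1513 CPM and 644 to 695 CPM, with 2 of 5 called higher. Their part in these changes was not tested.

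In optix yki3SA discs 22 members rose and 1 fell, but the rise was carried by few libraries. The median log2 change of members was 0.17, with 70 above 0, where that of all genes was 0.03. The 22 members that rose are 25.3% of 87, beside 9.02% of all genes tested, and the 1 that fell is 1.15%, beside 10.5% (edgeR, adjusted p under 0.05). RpL22 showed the largest rise, a log2 change of 1.44 ± 0.43 (SE, edgeR adjusted p = 0.024), from values of 13.5 and 51.9 CPM in yki3SA and 9.93, 10.2 and 17.2 CPM in controls. Its replicates overlapped the controls, since yki3SA replicate 1 lay below control replicate 3. RpL27A had 2986 and 4807 CPM against 2759, 1522 and 3087 CPM and rose by 0.71 ± 0.22 (SE, edgeR adjusted p = 0.028). RpS24 had 2361 and 3261 CPM against 2089, 1270 and 2189 CPM and rose by 0.65 ± 0.17 (SE, edgeR adjusted p = 0.010). RpL35A rose by 0.66, RpL28 by 0.60, RpL9 by 0.59 and RpS19a by 0.55 on the log2 scale. In these genes other than RpL22, control replicate 2 was the lowest value, and in all of them yki3SA replicate 2 was the highest. Over the 22 members that rose, control replicate 2 was the lowest control in 21 and yki3SA replicate 2 exceeded yki3SA replicate 1 in 21, beside 36 and 49 of all 87 members. All 22 were higher in yki3SA replicate 2 than in control replicates 1 and 3, and 13 were so in yki3SA replicate 1. The RpL22 change was 0.18 without yki3SA replicate 2. Without control replicate 2, which stands apart, 2 members rose and 1 fell, without yki3SA replicate 2 none rose and 1 fell, and the 5 optix libraries fitted alone gave 0 calls. RpS5b fell, with 0.590 and 2.10 CPM against 2.95, 5.05 and 3.43 CPM (log2 change -1.37 ± 0.41 SE, edgeR adjusted p = 0.022), and with control replicate 2 left out it did not pass (log2 change -1.13, edgeR adjusted p = 0.084). With the 5 optix libraries alone, 2.16% of all genes tested were higher and 4.71% lower. Without control replicate 2 these shares were 5.73% and 7.99%. Group ranges did not overlap in 25 members in the higher and 2 in the lower direction, beside 13.4% and 20.9% of all genes. Among markers, 7 of 13 eye-antennal genes fell (median log2 change -1.22), although their summed level was 5751 to 5781 CPM in yki3SA and 5087 to 5775 CPM in controls. Of the hemocyte markers tested 3 of 5 fell (-1.08), and of the glial markers 2 of 4 rose (1.03). Their part in these changes was not tested.

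In MARCM discs with activated Yorkie, members again lay slightly above controls, with 5 that rose and 1 that fell. The median log2 change was 0.23, with 83 of 87 above 0, where the median over all 8927 genes was 0.08. The 5 are 5.75% of members and the 1 is 1.15%, while 17.3% of all genes tested rose and 17.1% fell (edgeR, adjusted p under 0.05, with sequencing run as a term). RpLP1, of the stalk (FBgn0002593, chromosome 2L, 419952 to 420864, plus strand), had 4840, 4567, 4753, 4546 and 3927 CPM in run 1 yki3SA and 3716, 3680, 4090, 3319 and 3403 CPM in run 1 controls. In run 2 it had 3200 CPM against 2264 and 2182 CPM, and it rose by a log2 change of 0.48 ± 0.13 (SE, edgeR adjusted p = 0.0060). Its run 1 groups overlapped in yki3SA replicate 5 and control replicate 3, and its run 2 groups did not. RpL13 had 3861, 3950, 3907, 3831 and 3840 CPM against 3455, 3446, 3421, 3422 and 3385 CPM in run 1. With 2668 CPM against 1824 and 1714 CPM in run 2, RpL13 rose by 0.40 ± 0.10 (SE, edgeR adjusted p = 0.0028), and its groups overlapped in neither run. RpLP0-like rose by 0.62, RpL36A by 0.34 and RpL19 by 0.33 on the log2 scale. Among the 13 fits that left out 1 library, the RpL36A call was lost in all 13, that of RpLP0-like in 9, that of RpS5b in 7 and that of RpL19 in 1, while RpLP1 and RpL13 kept theirs. RpS5b fell by 0.70 on the log2 scale (SE 0.25, edgeR adjusted p = 0.030), with 3.72, 6.62, 4.28, 3.88 and 4.11 CPM in run 1 yki3SA and 9.82, 8.16, 7.19, 5.96 and 8.68 CPM in controls, where the groups overlapped in yki3SA replicate 2. Upper quartile scaling, under which the median of all genes moved from 0.08 to -0.03, and TMM scaling without the members each left 2 that rose and 1 that fell. On the log2(CPM + 1) scale their median difference was 0.00 in run 1, with 45 of 87 above 0, and 0.36 in run 2, with 83 above 0, where the run 2 yki3SA group is 1 library of another genotype. With run 1 alone 0 members rose and 2 fell, beside 11.4% of all genes higher and 15.7% lower. Group ranges there did not overlap in 3 members in the higher and 1 in the lower direction, beside 14.0% and 17.9% of all genes. Same-numbered run 1 libraries of controls and yki3SA varied together, and with the replicate number as a block 3 members rose and 0 fell. Leaving out control replicate 1, 2 or 5 or yki3SA replicate 4 gave 3 that rose and 0 that fell, and leaving out the run 2 yki3SA library gave 2 and 1. Without the 4 libraries that stand apart, none of which belongs to these groups, 24 members rose and 2 fell. That is 29.9% called, beside 24.6% of all genes higher and 24.8% lower. Summed eye-antennal markers were 3230 to 3577 CPM in run 1 yki3SA and 5088 to 5875 CPM in controls, and summed tracheal markers 1803 to 2484 CPM and 544 to 747 CPM. Their part in these values was not tested.

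**Figure D4:**
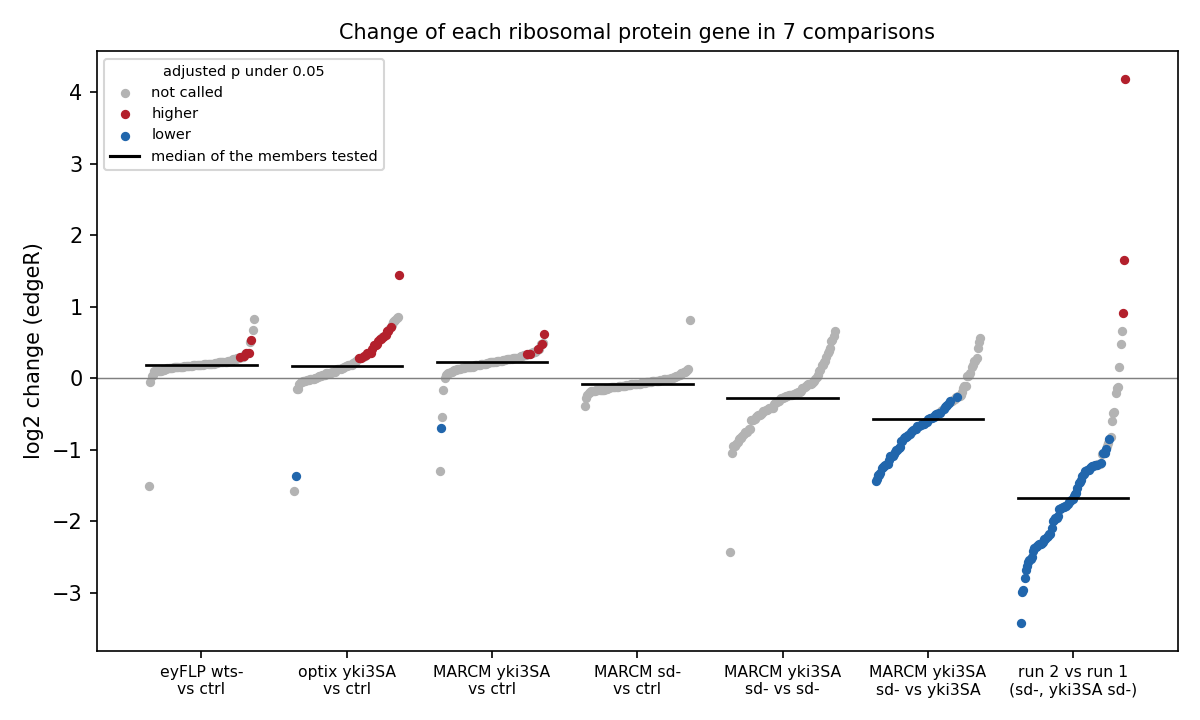
Log2 change of each member in 7 comparisons (y axis), ordered by size within a comparison, with members past the test in red (higher) or blue (lower) and black lines at the median. The medians lie near 0.2 for the 3 comparisons of an altered model with its control (0.19, 0.17 and 0.23), at -0.08 for sd-, at -0.58 for yki3SA sd- against yki3SA and at -1.67 for run 2 against run 1.

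Whether the response of a member differed between the models was tested as the difference of responses in the 20 run 1 libraries of these models. Between eyFLP and optix 1 member differed, RpS5b, by a log2 difference of 2.04 ± 0.55 (SE, edgeR adjusted p = 0.023). Its values were 4.17 and 3.53 CPM in wts- and 2.85, 2.33 and 2.45 CPM in the eyFLP controls, so the wts- libraries were the higher ones there and the yki3SA libraries the lower ones in optix. That is 1.15% of members higher and 0 lower, where 3.36% of all genes had a higher and 4.83% a lower difference. Without optix ctrl replicate 2, eyFLP ctrl replicate 2 or eyFLP wts- replicate 1 the count was 0. Between eyFLP and MARCM 3 members differed, RpS5b by 1.47, RpL6 by 0.50 and RpS14b by 0.45 on the log2 scale, all higher in eyFLP, beside 3.59% higher and 4.92% lower over all genes. Without eyFLP wts- replicate 1 none was called and without replicate 2 only 1. The RpS5b call was lost in 11 of the 15 fits that left out 1 library. Between optix and MARCM 8 members differed, all higher in optix, where 7.75% of all genes were higher and 8.02% lower. RpL22 differed by 1.70, RpS24 by 0.84, RpL9 by 0.73, RpL41 by 0.60, RpS14b by 0.53, RpL39 by 0.51, RpS27A by 0.47 and RpL30 by 0.44 on the log2 scale. For RpS14b the run 1 MARCM yki3SA libraries had 488, 440, 447, 489 and 496 CPM and controls had 649, 615, 607, 675 and 642 CPM, without overlap, while optix yki3SA had 525 and 590 CPM and its controls 493, 582 and 508 CPM. Without optix ctrl replicate 2 the count was 3 and without optix yki3SA replicate 2 it was 0. It was 18 without optix ctrl replicate 3 or optix yki3SA replicate 1, and 13 without MARCM yki3SA replicate 1.

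The sd- groups gave no member call against controls. In run 2 the controls had another FRT arm and driver, so this comparison is not of the sd47M allele alone. The median log2 change of sd- against control was -0.08, and edgeR called 0 of 87 members, with 0 at an unadjusted p under 0.05 and 0 by DESeq2, beside 0.0784% of all genes higher and 0.0224% lower. The member with the lowest p was RpS19b, at 5.00, 5.27 and 0.948 CPM in run 1 sd- and 0.742 to 2.36 CPM in controls, with sd- replicate 3, which stands apart, inside the control range (log2 change 0.82, edgeR adjusted p = 0.9995). Without the 4 libraries that stand apart the median was -0.06 and edgeR again called 0 members. With run 1 alone, where controls also carried FRT19A, the median was -0.08 and 0 of 86 members tested were called. There 0.167% of all genes were higher and 0.0478% lower. RpL36 and RpL12, also among the 4 lowest p, had log2 changes of -0.11 and -0.17.

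The libraries labelled yki3SA sd-, whose yki count was below controls in run 1 and above them in run 2, gave no member call against sd- either. The median change of yki3SA sd- against sd- was -0.28, with 71 of 87 below 0, and edgeR called 0 members, with 27 at an unadjusted p under 0.05 and 0 by DESeq2. Of all genes 0.0336% were higher and 0.101% lower. RpS19b had the lowest p (0, 0 and 0.438 CPM in run 1 yki3SA sd-, edgeR adjusted p = 0.14), followed by RpS15Ab, RpS15Aa and RpL26 with log2 changes of -0.49, -0.42 and -0.43. The runs differed in size, with a median member difference on the log2(CPM + 1) scale of -0.55 in run 1, where 2 of 3 yki3SA sd- libraries stand apart, and -0.09 in run 2. Within run 1, fitted alone, 4 of 86 members tested rose and 7 fell, which is 12.8% called beside 17.1% of all genes. The median of -0.28 became -0.13 without yki3SA sd- replicate 2 and -0.17 without the 4 libraries that stand apart, where edgeR also called 0 members. Group ranges did not overlap in 0 members in the higher and 9 in the lower direction in run 1, beside 7.58% and 7.33% of all genes. In run 2, 51 of 87 members had both yki3SA sd- libraries below both sd- libraries and 0 had them above, beside 23.6% and 27.3% of all genes.

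Against yki3SA alone, most members were lower in the libraries labelled yki3SA sd-, whose discs hold sd47M clones among other cells and whose sd count was 306, 238 and 264 CPM in run 1 and 337 and 335 CPM in run 2. Their yki count also differed, at 4.22, 2.46 and 9.10 CPM in run 1 against 37.97 to 70.5 CPM in yki3SA. In run 2 it was 156 and 180 CPM against 2728 CPM. The part of the yki count in the changes was not tested. In this comparison 60 of 87 members fell and 0 rose, with a median log2 change of -0.58 where all genes had -0.08. The 60 are 69.0% of members, beside 28.1% of all genes lower and 24.9% higher (edgeR, adjusted p under 0.05). By subunit, 34 of 49 large and 24 of 36 small subunit members fell, with medians of -0.54 and -0.64. RpL13 stood at 1500 and 1560 CPM in run 2 yki3SA sd-, below its 2668 CPM in run 2 yki3SA, and at 2915, 2126 and 3040 CPM in run 1, below all 5 run 1 yki3SA libraries. The largest falls were those of RpS5a (-1.43 ± 0.54 SE), RpL21 (-1.41 ± 0.40 SE), RpS10b (-1.36 ± 0.37 SE) and RpL4 (-1.35 ± 0.48 SE), with edgeR adjusted p of 0.030, 0.0058, 0.0047 and 0.023. RpS3A fell by 1.32, RpL38 by 1.26, RpL34a by 1.24 and RpL35A by 1.22 on the log2 scale. These members are among those that were low in the libraries that stand apart, and RpL21, for example, stood at 641 and 299 CPM in yki3SA sd- replicates 1 and 2 and at 2389 CPM in replicate 3, beside 3278 to 4478 CPM in run 1 yki3SA. Without the 4 libraries that stand apart 62 members fell and 1 rose, beside 24.6% of all genes lower and 24.1% higher, but the median was -0.41, and RpS5a (log2 change -0.49, edgeR adjusted p = 0.050) and RpL35A (log2 change -0.38, edgeR adjusted p = 0.052) no longer passed. Without the run term 14 fell, which is 16.1%, beside 11.9% of all genes lower and 14.1% higher. With run 1 alone 40 of 86 members tested fell and 6 rose, beside 26.4% of all genes lower and 27.4% higher. Without yki3SA sd- replicate 2 the median was -0.36. On the log2(CPM + 1) scale the median difference was -0.66 in run 1 and -0.50 in run 2, and 70 of 87 members were lower in both, although the run 2 yki3SA library is a single one with another FRT arm and driver than yki3SA sd-. In run 1 the group ranges did not overlap in 38 members in the lower and 1 in the higher direction, beside 20.8% and 21.4% of all genes. Summed eye-antennal markers were 4908 to 5524 CPM in run 1 yki3SA sd- and 3230 to 3577 CPM in run 1 yki3SA. Summed tracheal markers were 482 to 727 CPM and 1803 to 2484 CPM, and summed hemocyte markers 84.5 to 186 CPM and 4.23 to 9.32 CPM. Their part in these changes was not tested.

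The interaction asks whether yki3SA changed a member differently in sd- discs than in discs without sd47M. The yki3SA libraries with and without sd47M also differed in yki count, as given above, and in run 2 in FRT arm and driver. The part of these differences was not tested. The interaction was lower in 9 of 87 members and higher in 0, with a median of -0.53. Of all genes 13.0% were lower and 15.0% higher. The largest was RpL38, known in mice for its role in patterning (FBgn0040007, chromosome 2R, 4515388 to 4516458, minus strand), at -1.20 ± 0.39 (SE, edgeR adjusted p = 0.025). In run 1 RpL38 had 1774, 1820, 1832, 1701 and 1961 CPM in yki3SA and 1523, 1330, 1493, 1615 and 1671 CPM in controls, where yki3SA was the higher group. In the sd- background it had 685, 188 and 1262 CPM with yki3SA and 1686, 1708 and 978 CPM without. RpL34a (-1.06), RpS15Ab (-0.80), RpS15Aa (-0.70), RpL13 (-0.65), RpL26 (-0.62), RpL36A (-0.62), RpS28b (-0.46) and RpL29 (-0.46) made up the 9. RpL13 had the lowest adjusted p among members (0.0028, edgeR) and kept its call in each of the 23 fits that left out 1 library, as did RpS15Ab. The RpL34a call was lost in 19 of these 23 fits, that of RpS28b in 13 and that of RpL26 in 11. Without yki3SA sd- replicate 2 RpL34a stood at -0.71. The median was -0.30 without yki3SA sd- replicate 2 and -0.34 without the 4 libraries that stand apart. Without these 4, 22 members were lower and 0 higher, which is 25.3% called, beside 17.6% of all genes lower and 19.0% higher. Without sd- replicate 1 or sd- replicate 2 only 2 members were called. The count was 23 without yki3SA sd- replicate 3, 5 lower without run 2 control replicate 2, and 4 lower with 1 higher without the run 2 yki3SA library.

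Most members also differed between the sequencing runs. In sd- and yki3SA sd- discs, whose genotypes were the same in both runs, 68 of the 86 members tested were lower in run 2 and 3 were higher, with a median log2 change of -1.67 (edgeR, adjusted p under 0.05), where 30.6% of the 8109 genes tested were lower and 28.1% higher. Without the libraries that stand apart 81 of 87 were lower and 3 higher, beside 35.0% and 39.3% of all genes, with a median of -1.68. RpL22-like was too low to be tested with them. RpS14a (FBgn0004403) was lowest, with 836 and 902 CPM in run 2 sd- and 3449, 3537 and 5103 CPM in run 1 sd-. Its log2 change was -3.43 ± 0.29 (SE, edgeR adjusted p = 6.7e-06). RpS21 was lower at -2.99, RpL15 at -2.96, RpL36A at -2.80, RpL32 at -2.68, RpS30 at -2.57 and RpL27 at -2.54. The 3 higher members were RpL22, RpL23A and RpLP0-like. RpL22 had 792 and 906 CPM in run 2 sd- and 35.3, 26.4 and 10.4 CPM in run 1 sd-, and was higher by 4.19 ± 0.35 (SE, edgeR adjusted p = 6.7e-06). RpL23A, near the exit of the peptide tunnel (FBgn0026372, chromosome 3L, 1666288 to 1668654, minus strand), had 2299 and 2478 CPM against 919, 813 and 265 CPM and was higher by 1.65, or by 0.88 without the libraries that stand apart. RpLP0-like was higher by 0.91, a call lost in 7 of the 10 fits that left out 1 library. In RpL22 and RpL23A every run 2 library lay above every run 1 library, across all groups.

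The run difference was alike in both genotypes. Taken without the libraries that stand apart, it had a Pearson's r of 0.945 and a Spearman's rho of 0.888 between sd- and yki3SA sd- over 87 members, which share their libraries' depth and run, with 75 lower and 7 higher in both. On this log2(CPM + 1) scale, which is relative to all counts of a library, the medians were -0.90 and -0.86, smaller than in the fit, whose scaling factors differ between the runs. Other genes with a high mean over all 33 libraries were also lower in run 2. The 79 genes tested that are no members and had such a mean over 1000 CPM had a median log2 change of -1.65. The 78 such members had -1.72, and the 72 mitochondrial ribosomal protein genes had -0.72. As 26 of the 33 libraries are of run 1, a cut on this mean favours genes that are high in run 1. The medians of the abundant genes therefore cannot show whether abundance goes with the change. Spearman's rho of the change with 3' UTR length was -0.07 over 85 members. The runs differ in depth, and library preparation dates are not given, so run, depth and preparation cannot be told apart. Tissue markers moved with the run as well in these genotypes. Summed ring gland markers were 795 to 1517 CPM in run 2 and 5.20 to 179.7 CPM in run 1, summed tracheal markers 1753 to 2285 CPM and 482 to 779.5 CPM, and summed eye-antennal markers 3162 to 3325 CPM and 4908 to 5524 CPM. The part of the dissected tissue in the run difference was not tested.

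**Figure D5:**
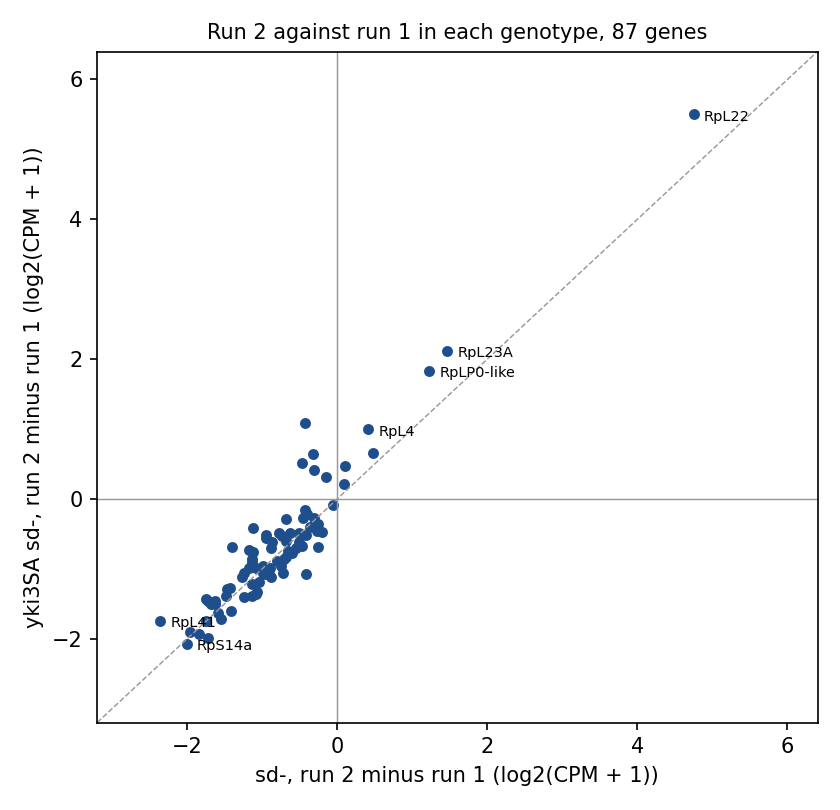
Run 2 minus run 1 difference of log2(CPM + 1) for each of the 87 members in sd- discs (x axis; run 1 replicates 1 and 2) and in yki3SA sd- discs (y axis; run 1 replicate 3), with a dashed line at equality. Most points lie in the lower left, 75 lower in both, and RpL22, RpL23A and RpLP0-like lie far to the upper right.

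Other gene lists of protein synthesis were counted in the same fits, with the 4 libraries that stand apart included. Results without these libraries are not given for the lists, dm and Xrp1. Of all genes tested, 10.6% rose in eyFLP wts-, 9.02% in optix yki3SA and 17.3% in MARCM yki3SA. In the same order 13.5%, 10.5% and 17.1% fell. In yki3SA sd- against yki3SA, 24.9% of all genes rose and 28.1% fell. Several list counts below are near or under these shares. Of 25 ribosome biogenesis factors tested, 10 rose in eyFLP wts- (median log2 change 0.43), 1 in optix yki3SA (0.12) and 13 in MARCM yki3SA (0.55), and none fell. Of 72 mitochondrial ribosomal protein genes, 2, 3 and 28 rose and none fell, with medians of 0.09, 0.16 and 0.42. Of 33 translation factors, 0, 4 and 8 rose and 2, 3 and 2 fell. Among 5 RNA polymerase I genes, 0, 0 and 2 rose. In yki3SA sd- against yki3SA, 16 of 25 biogenesis factors, 62 of 72 mitochondrial ribosomal protein genes, 21 of 33 translation factors and 3 of 5 RNA polymerase I genes fell, while 1 mitochondrial ribosomal protein gene and 4 translation factors rose. Of 21 growth and ribosomal stress regulators, 6, 2 and 8 rose and 1, 1 and 2 fell in the 3 models, and 4 rose and 8 fell in yki3SA sd- against yki3SA. The growth regulator dm rose in all 3 comparisons of an altered model with its control, by 0.92, 1.09 and 0.49 on the log2 scale (edgeR adjusted p = 2.7e-05, 6.1e-06 and 0.015). Its values were 777 and 725 CPM in eyFLP wts- against 424, 415 and 412 CPM, and 510 and 754 CPM in optix yki3SA against 319, 241 and 361 CPM. The 241 CPM belongs to optix control replicate 2, which stands apart. Xrp1, known in flies as a mediator of the response to ribosomal protein loss, rose as well, by 1.16, 0.67 and 0.69 (edgeR adjusted p = 1.7e-05, 0.0085 and 0.00011). In optix it had 225 and 412 CPM in yki3SA and 226, 156 and 239 CPM in controls, so replicate 1 lay below 2 of 3 controls. In yki3SA sd- against yki3SA, dm fell by 0.71 and Xrp1 fell by 1.02 on the log2 scale. For dm, yki3SA sd- replicates 1 and 2, which stand apart, had 251 and 268 CPM, and replicate 3 had 359 CPM. Run 1 yki3SA libraries had 445 to 518 CPM. In run 2 dm was at 162 CPM in yki3SA and at 122 and 131 CPM in yki3SA sd-.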

How the data were processed

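Per the labels' protocols, libraries were made from disc RNA with the QuantSeq 3' mRNA-Seq kit (forward). Per the submitters' processing notes, cutadapt, FastQC and STAR 2.6.1d were used with the dm6 genome. How tags were counted, with which strand setting and gene models, was not stated, so values of near-identical, overlapping and antisense genes are uncertain. The authors deposited raw counts per gene and library. Groups and runs follow the labels. Members, lists and tests were chosen with earlier results of these data known. CPM is scaled to all counts of a library. Of 16727 symbols 12512 matched a current symbol, 3996 an older one and 219 none or several. All fits used filterByExpr by group, TMM scaling and robust quasi-likelihood tests (edgeR 4.0.16, R 4.3.3), with p-values adjusted over all genes tested: 20 run 1 libraries (eyFLP, optix, MARCM control and yki3SA), 23 MARCM libraries with run as a term, and 10 sd- and yki3SA sd- libraries with run as a term. Standard errors were derived from F and are approximate. The fits were also tried on simulated counts with no difference between runs and no libraries that stand apart. That trial cannot bear on these features of the data. Positions come from the BDGP6.54 annotation (dm6 coordinates). No 2 libraries of a group agreed within sampling noise (lowest chi-square per degree of freedom 2.20). Deviations of all 5 same-numbered pairs of run 1 MARCM controls and yki3SA correlated (r 0.31 to 0.72), although numbers 2 and 4 matched another number better. Same-numbered pairs of sd- and yki3SA sd- in run 1 did not (r -0.34, -0.35 and -0.61), nor did those of optix (r -0.17 and -0.62). The replicate block used replicate numbers in every model. Outside run 1 MARCM controls and yki3SA it thus rests on pairs that did not all correlate. Named were yki, wts, sd and dm, the 5 highest and 5 lowest members, paralogs and -like members, sta, and per comparison up to 8 called members per direction, or 4 with the lowest p where none was called; others were named after their values were seen. Some results that the rule names are not reported here. Alternatives were other scaling, no filter, DESeq2 1.42.0, single libraries left out, a replicate block, single runs and no run term.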

Additional observations from a re-analysis of the deposited data

Results flagged for a closer look

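In 50 quantities checked in each of the 2 run 1 MARCM groups of 5 libraries, 6 had a library far from the other 4, and chance gives about 1 in 20. The share of counts in members was 27.8% in control replicate 1, the highest of the controls. RpL26 was lowest in control replicate 3, at 3208 CPM. Among yki3SA libraries RpL22-like (0.885 CPM) and RpS15Aa (2198 CPM) were highest in replicate 4, RpS20 (3206 CPM) in replicate 1 and RpS5b (6.62 CPM) in replicate 2.

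Responses differed between models, by edgeR's test of the difference, for RpS5b (2.04 between eyFLP and optix, 1.47 between eyFLP and MARCM run 1), RpL6 (0.50) and RpS14b (0.45 between eyFLP and MARCM, 0.53 between optix and MARCM). Between optix and MARCM they also differed for RpL22 (1.70), RpS24 (0.84), RpL9 (0.73), RpL41 (0.60), RpL39 (0.51), RpS27A (0.47) and RpL30 (0.44), all on the log2 scale. The interaction of yki3SA and sd- was lower for RpL38 (-1.20), RpL34a (-1.06), RpS15Ab (-0.80), RpS15Aa (-0.70), RpL13 (-0.65), RpL26 (-0.62), RpL36A (-0.62) and RpS28b (-0.46). The yki3SA groups compared there also differed in yki count. When single libraries were left out, the call was lost in 19 of 23 fits for RpL34a, in 13 for RpS28b and in 11 for RpL26, and in 11 of 15 for RpS5b between eyFLP and MARCM.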

How the results depend on the processing

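Several counts of members called moved with the setting, while the median kept its sign under all alternatives in 10 of 11 comparisons. For eyFLP wts- against control (5), the 5 libraries alone gave 31. For optix yki3SA against control (23), no filter gave 13 and the 5 libraries alone 0. For MARCM yki3SA against control (6), upper quartile scaling, TMM without the members, no filter and the replicate block each gave 3, run 1 alone 2 and no run term 0. For yki3SA sd- against yki3SA (60), no run term gave 14. For the interaction (9), upper quartile scaling and no filter gave 4, RLE factors and TMM without the members 5, run 1 alone 2 and no run term 0. For the difference of optix and MARCM (8), upper quartile scaling gave 14, DESeq2 13 and the replicate block 13. For that of eyFLP and optix (1) the block gave 2, and for the runs (71) it gave 46. Run 1 alone gave 11 for yki3SA sd- against sd- and run 2 alone 1, also for sd- against control. Without the 4 libraries that stand apart, chosen after seeing the data, counts were 3 (13.7%) for optix and 26 (49.4%) for MARCM yki3SA. They were 22 (36.6%) for the interaction, 3 (12.2%) for optix against MARCM and 0 (7.17%) for eyFLP against optix. For fits that left out single libraries such shares are not given. Leaving out single libraries gave 1 to 5 for eyFLP, 1 to 28 for optix, 3 to 6 for MARCM yki3SA, 0 to 0 for sd- and for yki3SA sd- against sd-, 41 to 60 for yki3SA sd- against yki3SA, 2 to 23 for the interaction, 0 to 1, 0 to 4 and 0 to 18 for the differences of eyFLP and optix, eyFLP and MARCM, and optix and MARCM, and 62 to 79 for the runs. The cause was not tested. Groups of 2 or 3 libraries limit the precision, as do levels under 10 CPM for RpS5b, RpS19b and RpL22-like.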
